A study of Mus musculus with 2 samples.

Results

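Drosha-independent microRNA (miRNA) genes of C2C12 myotubes are described here, as the 5 genes Mir320, Mir484, Mir877, Mir702 and Mir1224 of the 2202 annotated mouse miRNA genes. They were chosen by name from reports that they bypass Drosha, with Mir320 and Mir484 reported as capped precursors and Mir877, Mir702 and Mir1224 as mirtrons, and they were matched by Ensembl identifier. The libraries came from C2C12, a mouse myoblast line from ATCC that fuses into multinucleated myotubes, taken 72 h after differentiation was started. There was 1 group of 2 biological replicates from separate biosamples of the same line, with no undifferentiated, treated or Drosha-deficient cells among them. A dependence on Drosha therefore could not be measured, and values were compared between genes and between the libraries, whose reads show no more than how those libraries differ.

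Most animal miRNAs are cut out of a long primary transcript by the nuclease Drosha, exported from the nucleus and cut again by Dicer to a mature strand that guides Argonaute. A mirtron skips the first cut, because splicing releases a short intron that, once debranched, folds into the hairpin that Dicer accepts. Capped precursors skip it too, because the hairpin starts at the transcription start and carries the cap of the nascent RNA. The mature strands act on messages as other miRNAs do: miR-320 was reported to repress the small heat shock protein Hsp20 in the mouse heart, and miR-484 to repress the mitochondrial fission protein Fis1 in mouse cardiomyocytes.

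The position of the hairpins was read from the annotation of the mm10 assembly (GRCm38), and RefSeq entries of build GRCm38.p6 matched 4 of the 5 genes, all but Mir320. The 3 mirtron hairpins are shown whole because their ends carry the splice sites that set them apart, with the first and last dinucleotides of the intron in capitals (for Mir702 the last lies outside the annotated hairpin).
Mir877: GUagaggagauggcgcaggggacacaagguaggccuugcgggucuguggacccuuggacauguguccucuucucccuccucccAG
Mir1224: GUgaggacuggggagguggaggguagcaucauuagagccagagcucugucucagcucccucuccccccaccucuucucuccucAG
Mir702: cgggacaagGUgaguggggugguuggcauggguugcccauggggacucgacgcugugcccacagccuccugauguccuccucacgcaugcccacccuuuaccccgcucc

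Mir877 (ENSMUSG00000077931.1, chr17:35960730-35960814, minus strand) fills an 85-base intron of Abcf1, which encodes an ATP-binding protein of translation, from its first base to its last. Mir1224 (ENSMUSG00000080669.1, chr16:20604452-20604536, plus strand) likewise fills an 85-base intron of Vwa5b2. Mir702 (ENSMUSG00000076240.1, chr5:136991433-136991541, plus strand) is offset on its intron of Plod3, a collagen lysyl hydroxylase gene. Its annotated hairpin starts 9 bases before the 102-base intron, within the upstream exon, and stops 2 bases short of the intron's end, so that the AG of the acceptor is not part of it. The 5p arms of these genes start at the first base of the intron, and the 3p arms end 1 base (miR-877-3p), 0 bases (miR-1224-3p) and 2 bases (miR-702-3p) before its last.

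**Figure D1:**
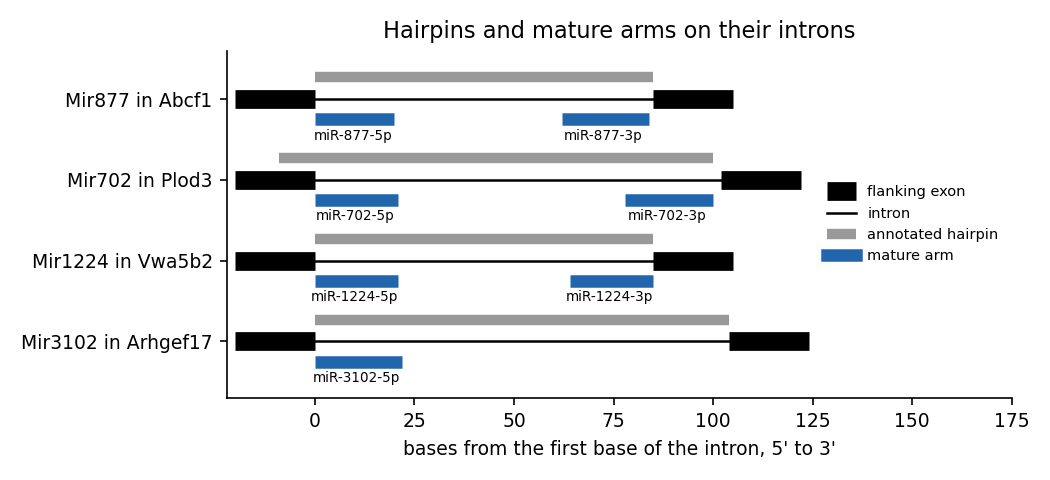
Hairpins and mature arms of Mir877, Mir702, Mir1224 and Mir3102 along their introns. The x axis gives bases from the first base of the intron, thick black bars are 20 bases of each flanking exon, the thin line is the intron, grey bars are annotated hairpins and blue bars are mature arms (for Mir3102 only the arm that shares a seed with miR-702-5p). Each 5p arm starts at base 0 of its intron, and the Mir702 hairpin starts 9 bases before it.

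Neither capped-precursor gene lay inside an intron of a coding gene or overlapped an annotated exon on its own strand. Whether either lay inside an intron of a noncoding gene was not examined. Mir320 (ENSMUSG00000065528.1, chr14:70443510-70443591, plus strand) is 82 bases long and starts 63 bases from the nearest annotated start of Polr3d, a subunit gene of RNA polymerase III that is read in the other direction. Mir484 (ENSMUSG00000070074.1, chr16:14159626-14159692, plus strand) is 67 bases long and starts 359 bases from the nearest start of Marf1, also read in the other direction, and it overlaps a Marf1 exon on the opposite strand. The nearest start on its own strand belongs to Nde1, a gene of the dynein pathway, and lies 3649 bases downstream. No annotated start of a longer transcript coincided with the 5′ end of either hairpin, and the counts hold no information on a cap.

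The mature sequences are shown because the seed, bases 2 to 8 in capitals, selects the targets of a miRNA, and the 7 mature strands of the 4 matched genes carry 7 different seeds.
miR-484: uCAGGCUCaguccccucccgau
miR-877-5p: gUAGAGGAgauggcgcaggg
miR-877-3p: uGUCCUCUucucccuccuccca
miR-1224-5p: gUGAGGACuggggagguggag
miR-1224-3p: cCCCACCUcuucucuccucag
miR-702-5p: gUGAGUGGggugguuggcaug
miR-702-3p: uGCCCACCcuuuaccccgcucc
miR-3102-5p: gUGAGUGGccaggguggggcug

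Among 1738 mature entries of RefSeq, 1 from another gene shared a seed with these strands. It was miR-3102-5p, whose seed is that of miR-702-5p and whose gene Mir3102 (hairpin in Arhgef17) also has a mirtron structure. Both strands start at the GU of the splice donor. The longest stretch that any of the 7 strands shared with the hairpin of another gene was 13 bases, for miR-702-3p, and the others shared 10 to 12. The tables count reads per gene and do not separate 5p from 3p strands.

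The matched hairpins were rich in G and C. The G and C content was 61.2% for Mir877, 65.1% for Mir702, 60.0% for Mir1224 and 58.2% for Mir484, against a median of 51.7% over 1005 RefSeq hairpins. For the 23 of these hairpins with both ends within 10 bases of the ends of 1 intron, the median was 60.5%. Mir702 was richer than 92.5% of all 1005 RefSeq hairpins and Mir484 than 76.1%. Mir484 also had few predicted base pairs: RNAfold paired 53.7% of its bases, a lower share than in all but 1.89% of hairpins. Mir1224 had the lowest predicted free energy per base of the matched genes, -0.50 kcal/mol, against a median of -0.41 over all hairpins. A hairpin that starts with GU and ends with AG was found in 30 of the 1005 (2.99%), and Mir877 and Mir1224 were 2 of them. Among the 23 hairpins at both ends of an intron, 15 (65.2%) had these ends.

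Replicate 1 held 7581366 and replicate 2 held 9865298 reads on the gene's own strand of miRNA genes, the totals to which counts-per-million values (CPM) refer. One read equalled 0.132 CPM in replicate 1 and 0.101 CPM in replicate 2. A list of 9 muscle-enriched miRNA genes held 35.5% and 42.8% of these reads, mostly from Mir206 (340841 and 416794 CPM). Of the 9, 6 reached 2 CPM in both libraries. Lists for blood cells, endothelium, epithelium, neurons and liver held at most 0.0217% each. Reads that map to several places enter no gene, which can lower the counts of genes present in several copies. The neuron list was made only of Mir124a and Mir9 copies, and the muscle list held Mir1a and Mir133a copies. A low count of such genes therefore does not show absence. Intervals below are 95% exact Clopper-Pearson intervals and cover counting error only. CPM were not divided by length, and the mature strands shown are 20 to 22 bases long.

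The members spanned the range from abundant to without a read. Mir320 and Mir484 were abundant, Mir877 was intermediate, Mir702 was near the limit of detection and Mir1224 had no read. A gene was called detected if each library gave it at least 2 CPM, which held for 3 of the 5 genes, against 12.4% of all 2202 genes. At least 1 read was found for 4 of the 5, against 32.2% of all genes. Together the 5 genes took 0.316% ± 0.00710 of miRNA reads (SD, n = 2). The share was 0.311% in replicate 1 (interval 0.307% to 0.315%) and 0.321% in replicate 2 (0.318% to 0.325%).

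Mir320 had 10965 reads or 1446 CPM in replicate 1 (interval 1419 to 1474) and 18756 reads or 1901 CPM in replicate 2 (1874 to 1929). Its mean of 1674 ± 322 CPM (SD, n = 2) placed it 45th among all genes. Its reads came from its own strand but for 1 read on the opposite strand in replicate 2. Mir484 had 12224 reads or 1612 CPM in replicate 1 (interval 1584 to 1641) and 12217 reads or 1238 CPM in replicate 2 (1217 to 1261). Its mean of 1425 ± 264 CPM (SD, n = 2) placed it 52nd, and no opposite-strand read was counted in it.

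The order of Mir320 and Mir484 was not resolved. The log2 ratio of Mir320 over Mir484 was -0.16 in replicate 1 and 0.62 in replicate 2, which gives 0.23 ± 0.55 (SD, n = 2). Their summed share of miRNA reads was 0.306% in replicate 1 and 0.314% in replicate 2, so the sum differed less between the libraries than either gene.

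Mir877 had 375 reads or 49.5 CPM in replicate 1 (interval 44.6 to 54.7) and 654 reads or 66.3 CPM in replicate 2 (61.3 to 71.6). Its mean was 57.9 ± 11.9 CPM (SD, n = 2), the 151st of all genes. Both capped-precursor genes were above it in each library: Mir320 by 29.2-fold in replicate 1 and 28.7-fold in replicate 2, and Mir484 by 32.6-fold and 18.7-fold. The ratio of Mir320 to Mir877 was the steadier, at 4.85 ± 0.02 on the log2 scale (SD, n = 2), against 4.62 ± 0.57 for Mir484 to Mir877.

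Mir702 had 13 reads or 1.71 CPM in replicate 1 (interval 0.913 to 2.93) and 43 reads or 4.36 CPM in replicate 2 (3.15 to 5.87). It passed 2 CPM in replicate 2 but not in replicate 1, and its mean was 3.04 ± 1.87 CPM (SD, n = 2). Mir877 exceeded it by 27.8-fold in replicate 1 and 15.0-fold in replicate 2. Mir1224 had 0 reads in both libraries. The limit that a count of 0 leaves, taken as 3 reads per library, was 0.396 CPM for replicate 1 and 0.304 CPM for replicate 2. Measured against that limit in each library, Mir877 was at least 125-fold higher than Mir1224 in replicate 1 and at least 218-fold higher in replicate 2. Both fill an intron of 85 bases from end to end. Apart from Mir320 and Mir484, the values of neighbouring members did not overlap between the libraries. A two-sided exact permutation test on 2 pairs of values cannot give a p below 0.5, so the order was not tested.

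**Figure D2:**
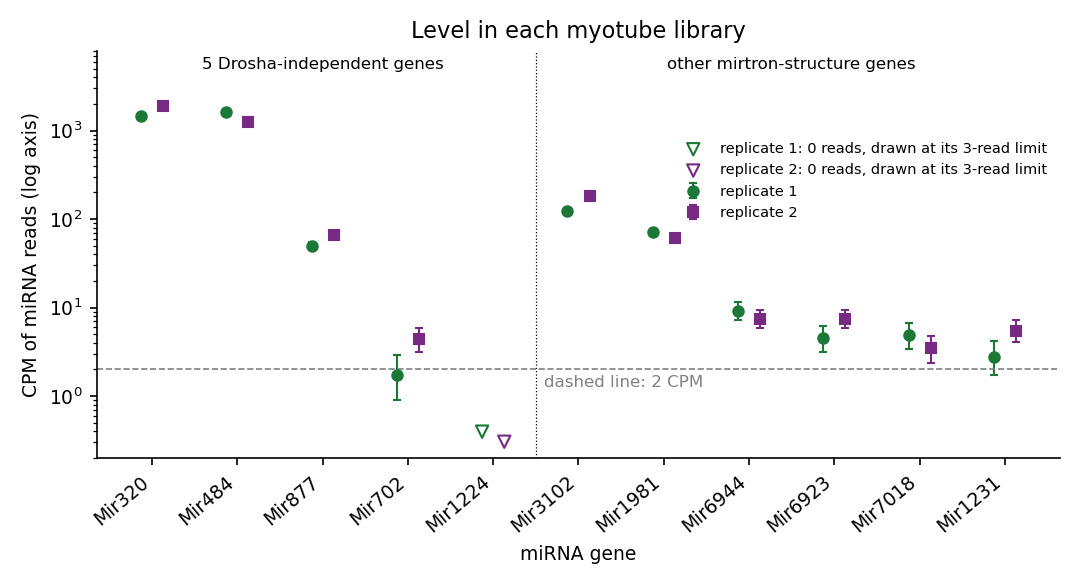
CPM of miRNA reads (log axis) of the 5 Drosha-independent genes, left of the dotted line, and of the 6 other detected genes with a mirtron structure, right of it. Circles are replicate 1, squares replicate 2, bars 95% exact intervals of counting error, and open triangles mark 0 reads at the limit of 3 reads. Mir320 and Mir484 lie above 1000 CPM, and Mir1224 has no read in either library.

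Genes with levels like those of the members were of several kinds. By distance between log2(CPM + 1) values over the 2 libraries, the nearest to Mir320 were Mir425 (distance 0.17, mean 1684 CPM) and Mir130b (0.31, 1552 CPM). The nearest to Mir484 were Mir151 (0.19, 1564 CPM) and Mir30b (0.23, 1568 CPM). The nearest to Mir877 were Mir128-2 (0.13, 56.6 CPM) and Mir6240 (0.36, 55.7 CPM). None of these 6 genes had a mirtron structure, and likeness over 2 libraries describes level only. For scale, Mir206, the skeletal muscle miRNA that was the most abundant gene, was at 378817 ± 53707 CPM (SD, n = 2).

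**Figure D3:**
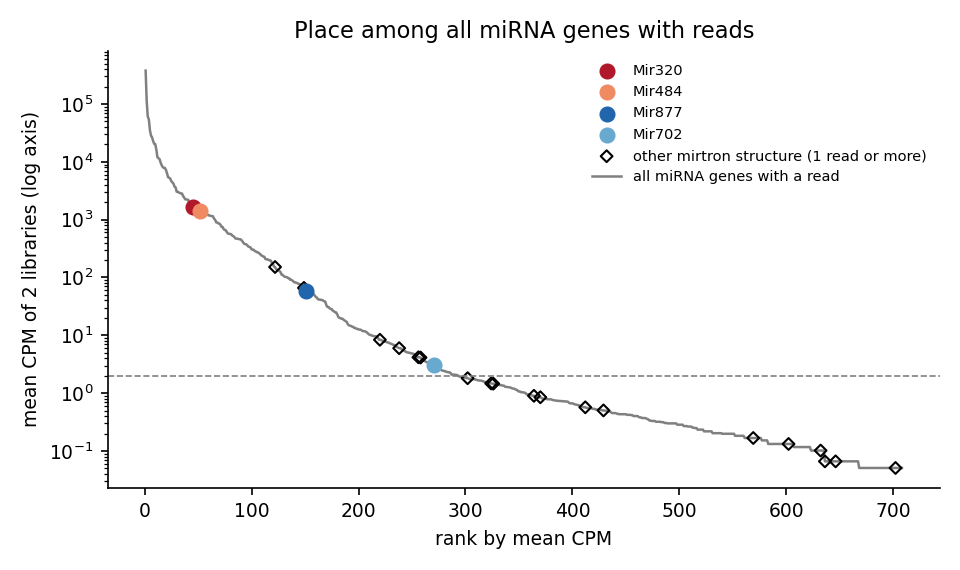
Mean CPM of 2 libraries (log axis) against rank for the 708 miRNA genes with a read, drawn as a grey line. Coloured points are Mir320, Mir484, Mir877 and Mir702, open diamonds are other genes with a mirtron structure, and the dashed line is 2 CPM. Mir320 and Mir484 rank 45th and 52nd, Mir877 ranks 151st and Mir702 ranks 271st.

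The members that are mirtrons were then set beside every miRNA gene of the same position. A mirtron structure was defined from the annotation alone, as a hairpin with both ends within 10 bases of the ends of 1 intron on its strand, and 29 genes had it, Mir877, Mir702 and Mir1224 included. Reads were found for 21 of the 29 (72.4%), but only 7 (24.1%) were detected at 2 CPM in both libraries, and none reached a mean of 1000 CPM. Without the 3 members, 19 of 26 had reads and 6 were detected. The median of the 29 genes was 0.502 CPM, against 0 CPM over all 2202 genes. Among the detected genes, the median was 8.37 CPM for the mirtron structure and 90.3 CPM over all miRNA genes. Genes inside an intron of a coding gene with neither end at an intron end had reads in 230 of 608 (37.8%), and 121 of them (19.9%) were detected, with a median of 111 CPM among the detected. The 608 and the 2202 genes include genes present in several copies, such as those of Mir466b, Mir467a and Mir669a. Reads that map to several copies enter no gene, and how far this lowered the shares was not tested.

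By mean CPM, Mir877 was the third of the 29. Mir3102 was above it in both libraries, at 123 CPM in replicate 1 and 181 CPM in replicate 2 (152 ± 41.0, SD, n = 2), or 2.48-fold and 2.73-fold the level of Mir877. Mir3102 exceeded Mir702, the gene with the same 5p seed, by 69.0-fold in replicate 1 and 41.0-fold in replicate 2. Mir1981, in an intron of Marc2, a gene for a mitochondrial reductase, was at 70.7 and 61.3 CPM, above Mir877 in replicate 1 and below it in replicate 2, so their order was not resolved. The other detected genes had means between those of Mir877 and Mir702. They were Mir6944 in the drebrin gene Dbn1 (8.37 ± 1.22 CPM), Mir6923 in the embryonic myosin heavy chain gene Myh3 (5.99 ± 2.13), Mir7018 in the perlecan gene Hspg2 (4.16 ± 1.01) and Mir1231 in Nav1 (4.12 ± 1.91; SD, n = 2 each). Of the remaining genes, 8 had no read, Mir1224 among them.

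**Figure D4:**
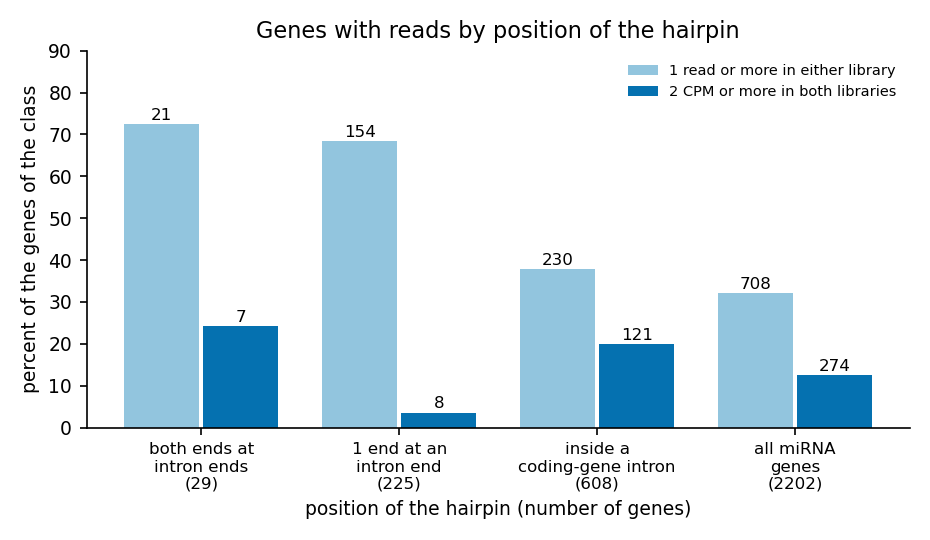
Percent of miRNA genes with 1 read or more in either library (light bars) and with 2 CPM or more in both (dark bars), by position of the hairpin, with the number of genes above each bar. Of the 29 genes with both ends at intron ends, 72.4% had a read and 24.1% were detected, against 32.2% and 12.4% of all 2202 genes.

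The last comparison was between the libraries, with an exact two-sided binomial test on the reads of each gene, TMM effective library sizes and Benjamini-Hochberg adjustment over the 415 genes with 10 or more reads. Of the 5 members, 4 had enough reads to be tested and all 4 differed, where 55.7% of all tested genes did. Replicate 1 was higher for 1 of them (30.4% of all tested genes) and replicate 2 for 3 (25.3% of all tested genes). The test reads counting error within these libraries, not biological spread, and it finds small differences where counts are high. With 100 or more reads required, 205 of 240 genes differed, Mir320, Mir484 and Mir877 among them.

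Mir484 was 1.27-fold higher in replicate 1 (log2 ratio of replicate 1 over replicate 2 0.35, exact binomial test, adjusted p = 2.09e-79). Mir320 was 1.34-fold higher in replicate 2 (log2 ratio -0.42, exact binomial test, adjusted p = 9.88e-135). Mir877 was 1.37-fold higher in replicate 2 (log2 ratio -0.45, exact binomial test, adjusted p = 2.84e-06). Mir702 was 2.53-fold higher in replicate 2 on 13 and 43 reads (log2 ratio -1.34, exact binomial test, adjusted p = 3.73e-03). The differences of Mir484, Mir320 and Mir877 were of common size, larger than those of 35.8%, 42.0% and 44.5% of the 274 detected genes. That of Mir702 was larger than those of 88.3% of the detected genes. Mir702 was not itself among them, and ratios on few reads vary more by counting error.

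Among the 29 genes with a mirtron structure, 14 had enough reads and 5 differed, where 55.7% of all tested genes did. Of the 51 tested genes with 1 hairpin end at an intron end, 6 were called higher in replicate 2 and 1 in replicate 1. Over all 415 tested genes, 25.3% were called higher in replicate 2 and 30.4% in replicate 1. All 5 called genes with a mirtron structure were higher in replicate 2, where 105 of all 231 called genes were. Besides Mir877 and Mir702 these were Mir3102 (log2 ratio -0.59, exact binomial test, adjusted p = 3.68e-24), Mir6923 (log2 ratio -0.76, adjusted p = 1.70e-02) and Mir1231 (log2 ratio -0.99, adjusted p = 1.04e-02). None was higher in replicate 1 by the adjusted exact test, and 2 were so at an unadjusted p below 0.05, Mir1981 (p = 4.25e-02) and Mir3062 (exact p = 4.18e-02), which is named here after its value was seen. Over the 14 genes the median log2 ratio was -0.24, but without Mir877 and Mir702 it was -0.003, against 0.02 over all 415 genes. Mir451a, reported to need Drosha but not Dicer, was 3.16-fold higher in replicate 1, at 11.9 CPM in replicate 1 and 3.65 CPM in replicate 2 (exact binomial test, adjusted p = 1.94e-09). Mir664, reported to derive from a small nucleolar RNA, was at 32.1 and 50.9 CPM and 1.62-fold higher in replicate 2 (exact binomial test, adjusted p = 8.56e-10).

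**Figure D5:**
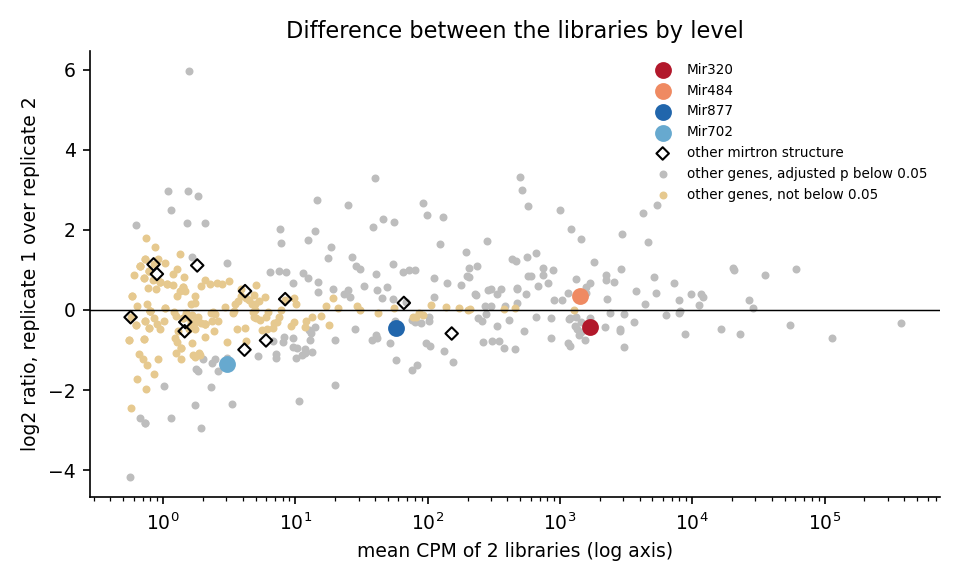
Log2 ratio of replicate 1 over replicate 2 against mean CPM (log axis) for the 415 tested miRNA genes. Large coloured points are Mir320, Mir484, Mir877 and Mir702, open diamonds are other genes with a mirtron structure, and small points are all others, grey where the adjusted p was below 0.05. Mir484 lies above 0, and Mir320, Mir877 and Mir702 lie below it.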

How the data were processed

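The authors deposited raw read counts per miRNA gene, made against mm10 with annotation M21, per the text beside the deposited tables. The aligner, the counter and the trimming were not given in the sources used here. Of 3 count columns, the one for the gene's own strand was recognised from its values, which hold most gene reads. It held 7581366 and 9865298 reads, against 741929 and 1485385 for the opposite strand. With strand ignored, nearly as many reads were ambiguous, 741854 in replicate 1 and 1485288 in replicate 2. Whether the opposite-strand reads are antisense transcripts was not tested. The choice of column matters for some genes: Mir451a had 90 and 36 reads on its own strand but 0 in both libraries with strand ignored. Summary lines named no gene and were left out. Multimapping reads (22.0% and 17.9% of 15349205 and 18450359 reads) and unmapped reads (22.7% and 23.1%) enter no gene. All 2202 identifiers matched GENCODE M21.

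TMM sizes came from edgeR 4.0.16 in R 4.3.3. The quasi-likelihood test of edgeR needs a contrast, which 1 group does not offer. The binomial test (scipy 1.17.1, Python 3.11.15) was tested on simulated Poisson counts. These held counting error only, so they could not show how the test behaves under biological spread between libraries. Ratios used a pseudocount of 0.5 reads, and hairpins were folded with RNAfold 2.7.2. Named genes were the 5 members, the 2 genes nearest in level to each detected member, the 6 most abundant other detected genes with a mirtron structure, Mir206, Mir451a and Mir664. Members, lists and tests were chosen with earlier results of these data known. Alternatives were the count ignoring strand, other denominators, thresholds, pseudocounts and tolerances, DESeq2 1.42.0 size factors, library totals and each library left out.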

Additional observations from a re-analysis of the deposited data

Results flagged for a closer look

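Reads of 2 kinds that enter no gene were flagged for lying above the limit set by a count of 0. That limit is for a single gene, so passing it says little about totals of a whole library. Of the multimapping kind there were 3378438 in replicate 1 and 3295854 in replicate 2. Reads mapped elsewhere than in miRNA genes came to 903243 in replicate 1 and 1027420 in replicate 2. The tables do not divide either kind by gene, so whether any belongs to the 5 members was not tested. Groups of 2 libraries are too small to single out a library.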

How the results depend on the processing

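Of 74 values recomputed under the alternatives, 63 were counted as unmoved and 11 as moved, and none reversed. An unmoved value stayed within the replicate spread, within 1.5 times for a count, or on the same side of the threshold in the same direction. Some of the 63 could not have moved. With 2 libraries, a mean that leaves 1 out always lies within their SD, and Mir1224 stays at 0 under any denominator. With all reads as the denominator the means fell to 865 CPM for Mir320, 729 CPM for Mir484 and 29.9 CPM for Mir877, and the share of the 5 genes to 0.163%. Without Mir206 in the denominator they were 2727, 2285, 94.4 and, for Mir702, 5.04 CPM, and the share was 0.511%. The count that ignores strand gave a share of 0.361%, since its total is smaller. A tolerance of 20 bases gave 49 genes with a mirtron structure, and one of 2 bases gave 22, Mir702 not among them. Without replicate 1, 4 members reached 2 CPM, and without replicate 2, 3 did; Mir702 was the gene concerned. With 100 or more reads required, 3 members differed between the libraries, because Mir702 was no longer tested. With 1 library left, the test between libraries cannot be made. No paired analysis was possible because the series has 1 group. Depth limits Mir702, with 13 and 43 reads, and Mir1224, with 0.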

Other observations

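Hairpins with 1 end at an intron end and the rest inside the intron, as in mirtrons with a tail, numbered 225. Reads were found for 154 of them (68.4%), but 8 (3.56%) were detected at 2 CPM in both libraries, against 12.4% of all miRNA genes. The most abundant, named after their values were seen, was Mir5121 in the ribosomal protein gene Rpl13a, at 34.4 CPM in replicate 1 and 80.4 CPM in replicate 2, close to the level of Mir877. It was followed by Mir6994 in Patl1 (9.79 ± 1.35 CPM) and Mir3100 in Dmpk, the gene of the myotonic dystrophy kinase (7.51 ± 0.554 CPM; SD, n = 2 each).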
